A study of Homo sapiens with 6 samples.

Results

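The mTOR pathway genes described here are 37 human genes, chosen by name as the receptors and adaptors, PI3K and AKT kinases, TSC complex, mTOR complexes, amino acid and stress sensors, and outputs of this signalling route. They were followed through 4 lists of ChIP-seq peaks and 2 tables of differential regions by taking each peak or region that overlapped the RefSeq GRCh38 span of a gene, extended by 2000 bp on both sides, by at least 1 bp. The whole set of protein-coding genes on chromosomes 1 to 22 and X held 19974 genes. Of the H3K4me3 peaks, 86 of 33201 in OTX2high and 82 of 28824 in OTX2low lay at these 37 genes. Of the H3K27me3 peaks, 50 of 158878 (list labelled OTX2high) and 11 of 102810 (list labelled OTX2low) did so. The differential tables placed 50 of 21714 H3K4me3 regions and 8 of 5401 H3K27me3 regions at them.

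The study mapped 2 histone marks in D283, a standard cell line of Group 3 medulloblastoma (a childhood tumour of the cerebellum), kept as tumorspheres, which float as clusters in neural precursor medium with bFGF and EGF. OTX2high cells received a non-silencing Scramble siRNA, and OTX2low cells received siRNA against OTX2, a homeodomain transcription factor highly expressed in these tumours, at 30 nM. Each mark had 1 library per condition, and the 2 IgG control libraries were put in no group because the title of each contradicts its silencing label. All libraries came from the same cell line, no time after transfection is given in the sources used here, and siRNA acts on the transcript, so the loss of OTX2 is only as deep and as long as the transfection made it.

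Growth factor receptors of the insulin family, together with their IRS adaptors, recruit PI3K, which makes the lipid signal that brings AKT to the membrane. AKT restrains the TSC complex and so frees the GTPase RHEB to switch on mTORC1 at the lysosome, where the RAG GTPases place mTORC1 when amino acids are present. mTORC1 then drives translation through the S6 kinases and the 4E-BP proteins and holds back autophagy and TFEB, while mTORC2 phosphorylates AKT. H3K4me3 marks promoters that are active or poised, and H3K27me3 is laid down by Polycomb repressive complex 2, so the maps below describe chromatin at these genes and not their RNA or the activity of the pathway.

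Because each condition had 1 library per mark, no difference below has a replicate check. The intervals given are 95% counting intervals of the ratio from the recovered reads. They cover counting error only, and PCR copies are not independent molecules. Filtered tags, per the file headers, numbered 33137731 (OTX2high) and 20914582 (OTX2low) for H3K4me3, and 40271458 (labelled OTX2high) and 33885628 (labelled OTX2low) for H3K27me3. The H3K27me3 list labelled OTX2high names OTX2low in its header, and the reverse holds for the other. Per the file headers, the list labelled OTX2high was set against an IgG control of 55079542 tags, as was H3K4me3 in OTX2low. The list labelled OTX2low was set against one of 85840108 tags, as was H3K4me3 in OTX2high. Both lists keep their sample label as a name here, and the directions of H3K27me3 regions follow the condition names in the authors' deposited table, which would be exchanged if the sample labels were right. As to cell identity, 5 of 5 genes that mark this tumour type (OTX2, CRX, NEUROD1, EOMES and BARHL1) had an H3K4me3 peak in both conditions, against 1 of 4 glial genes in both, 1 of 4 immune genes in OTX2high and 0 of 4 in OTX2low, and 1 of 2 endothelial genes in both.

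Promoters of 7 genes described below are shown first. RefSeq promoter sequences (GRCh38.p14) were matched by symbol for 31 of the 37 genes, with 44 transcription starts. No entry was used for MLST8, AKT1S1, DEPTOR, EIF4EBP1, RRAGA and RRAGD. Each line gives the 250 bases just before a start, 5′ to 3′ on the strand of the gene, in lower case, with the E-box CACGTG in capitals. This E-box is the core of the CLEAR element that TFEB and its relatives bind. The first are the receptors INSR and IGF1R and the adaptor IRS1, where INSR and IRS1 differed in opposite directions and both receptors also carried H3K27me3. INSR lies on chr19:7294415-7294664 (minus strand), IGF1R on chr15:98648289-98648538 (plus strand) and IRS1 on chr2:226799821-226800070 (minus strand).
INSR: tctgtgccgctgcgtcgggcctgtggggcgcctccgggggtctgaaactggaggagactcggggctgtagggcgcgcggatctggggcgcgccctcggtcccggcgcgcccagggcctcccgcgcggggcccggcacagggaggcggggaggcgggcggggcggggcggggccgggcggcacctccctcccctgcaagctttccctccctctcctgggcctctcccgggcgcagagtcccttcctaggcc
IGF1R: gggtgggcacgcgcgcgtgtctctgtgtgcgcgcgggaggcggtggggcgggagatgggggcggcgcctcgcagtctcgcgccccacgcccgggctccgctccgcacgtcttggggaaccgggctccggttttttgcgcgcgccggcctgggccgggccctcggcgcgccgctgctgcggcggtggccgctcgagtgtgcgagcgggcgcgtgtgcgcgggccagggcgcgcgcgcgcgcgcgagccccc
IRS1: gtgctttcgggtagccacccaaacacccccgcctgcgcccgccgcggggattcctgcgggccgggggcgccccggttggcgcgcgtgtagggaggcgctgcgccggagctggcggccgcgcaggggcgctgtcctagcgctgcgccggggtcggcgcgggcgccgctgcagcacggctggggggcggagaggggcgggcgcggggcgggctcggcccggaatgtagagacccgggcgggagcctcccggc
Next come the upstream start of PRR5 on chr22:44668501-44668750, its downstream start on chr22:44701954-44702203 (both plus strand), and DDIT4 on chr10:72273674-72273923 (plus strand), the 2 genes with peak-borne differences in both directions.
PRR5 upstream start: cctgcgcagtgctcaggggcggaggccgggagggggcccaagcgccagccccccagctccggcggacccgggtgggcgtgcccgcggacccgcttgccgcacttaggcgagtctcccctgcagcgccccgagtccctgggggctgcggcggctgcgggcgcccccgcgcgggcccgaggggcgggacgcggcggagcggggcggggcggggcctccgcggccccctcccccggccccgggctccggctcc
PRR5 downstream start: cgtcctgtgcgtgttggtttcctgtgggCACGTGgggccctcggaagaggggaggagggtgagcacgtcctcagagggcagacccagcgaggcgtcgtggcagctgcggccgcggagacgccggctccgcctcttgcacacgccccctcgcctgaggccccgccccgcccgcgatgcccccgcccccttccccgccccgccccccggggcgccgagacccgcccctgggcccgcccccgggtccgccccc
DDIT4: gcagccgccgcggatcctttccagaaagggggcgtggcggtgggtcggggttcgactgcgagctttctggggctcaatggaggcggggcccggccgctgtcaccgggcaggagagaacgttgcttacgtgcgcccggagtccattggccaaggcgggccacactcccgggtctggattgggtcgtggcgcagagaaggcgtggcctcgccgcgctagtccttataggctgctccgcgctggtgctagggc
The last are 2 lysosomal members that hold the E-box, RRAGC on chr1:38859773-38860022 and LAMTOR1 on chr11:72103298-72103547 (both minus strand).
RRAGC: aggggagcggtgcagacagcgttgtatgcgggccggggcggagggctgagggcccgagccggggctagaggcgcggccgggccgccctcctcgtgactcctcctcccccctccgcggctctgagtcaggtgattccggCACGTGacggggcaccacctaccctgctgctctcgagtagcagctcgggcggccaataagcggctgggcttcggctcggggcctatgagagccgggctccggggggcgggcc
LAMTOR1: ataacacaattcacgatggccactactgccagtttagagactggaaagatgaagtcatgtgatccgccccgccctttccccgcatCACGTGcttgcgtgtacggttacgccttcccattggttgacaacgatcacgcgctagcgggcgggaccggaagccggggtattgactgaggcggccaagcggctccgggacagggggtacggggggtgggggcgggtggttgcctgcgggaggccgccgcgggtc

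The shown promoters are rich in G, C and CpG. Their GC content ran from 63.6% at LAMTOR1 to 84.4% at the upstream start of PRR5. Over the 44 starts of the 31 genes, the median GC content was 65.8% and the median ratio of observed to expected CpG 0.83, beside 62% and 0.71 over 22156 starts of all protein-coding genes. A CACGTG was found before 6 of the 44 starts (13.6%), beside 7.37% of all starts: at EIF4E, LAMTOR1, PRR5, RRAGB, RRAGC and TSC2. TAATCC or its reverse GGATTA, the core letters read by OTX2-type homeodomains, was found before 0 of the 44, beside 4.86% of all starts. TGACGTCA, the palindromic element of cAMP and ATF factors, was found before 0 of the 44, beside 2.01%. These are matches of letters on both strands of the 250-base windows, the 3 motifs share no full match, and they describe only these windows.

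H3K4me3 marked every one of these genes in both conditions. A peak overlapped 37 of 37 genes in OTX2high, where 75% of all genes had one, and 37 of 37 in OTX2low, where 73.7% did; both lists held one at 73% of all genes. The median span of the pathway genes was 52246 bp, beside 24170.5 bp over all genes, and a longer span has more room for a peak. Of the 31 genes with a listed start, 31 had a peak over a start in both conditions, beside 68.8% (OTX2high) and 67.9% (OTX2low) of all genes with a start. The fold enrichment of a start peak is the authors' ratio of ChIP signal over local background at the summit, and serves only within a list. In the OTX2high list it had a median of 49.4 over the 31 genes (28.6 to 64.1), beside 45.8 over all genes with such a peak. In the OTX2low list the median was 39.7 (21.2 to 57.9), beside 35.8.

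By their strongest peak anywhere in the span, PDPK1 (67.2), AKT1S1 (64.8) and RPTOR (64.1) stood highest in OTX2high and RRAGB (28.6), ULK1 (29.5) and RHEB (30.4) lowest. The PDPK1 summit lies past the far end of the gene, near LOC652276, and the start peak of PDPK1 had 49.4. In OTX2low the highest fold enrichments were those of TSC1 (57.9), RPTOR (56.1) and MTOR (55.0), and the lowest those of RHEB (21.2), PRR5 (25.4) and RRAGB (25.8). RPTOR, the scaffold that brings substrates to mTORC1, was thus among the highest in both lists, and RRAGB and RHEB among the lowest in both. The start peaks were of ordinary length, with a median of 2953 bp in OTX2high and 2447 bp in OTX2low, beside 2672 and 2285 bp over all genes. IRS1 was the exception in OTX2high, with a single peak of 9977 bp, where the 95th percentile of all genes was 5641 bp. Its start peak in OTX2low measured 2078 bp. All IRS1 peaks together covered 10701 bp in OTX2high and 8251 bp in OTX2low. The H3K4me3 libraries differ in depth, with 33137731 tags in OTX2high and 20914582 in OTX2low. The part of depth in these and later peak lengths was not tested.

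**Figure D1:**
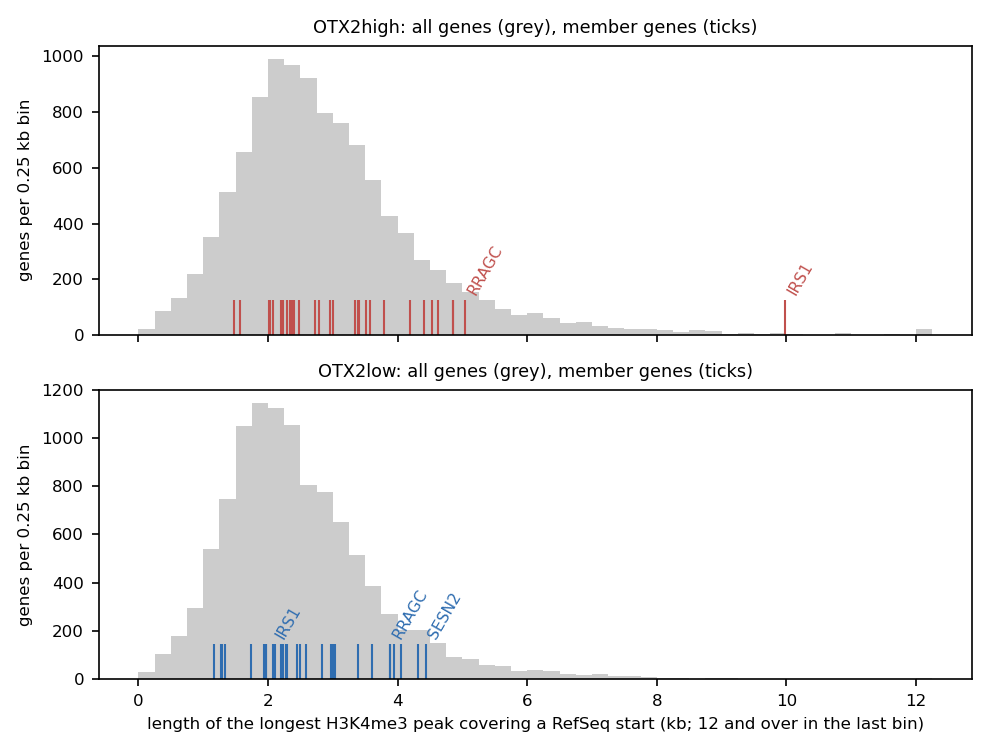
Length of the longest H3K4me3 peak that covers a RefSeq start (x axis, kb) against the number of genes per bin (y axis), for all protein-coding genes (grey) and the 31 pathway genes with a listed start (ticks), in OTX2high above and OTX2low below. IRS1 sits at 9977 bp in OTX2high and at 2078 bp in OTX2low, and the other ticks lie within the bulk of the grey distribution.

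Between the conditions, most of these genes were listed with more H3K4me3 reads in OTX2high, the commoner direction among all genes with a region. The differential table lists only regions that the authors' diffReps G-test called between 1 library and 1, with reads normalized per library, so a gene without a region has no value. Genes for which every region was higher in OTX2high numbered 25 of 37 (67.6%), beside 41.7% of all genes and 55.4% of the genes with an H3K4me3 peak in both lists. Genes with every region higher in OTX2low numbered 2, INSR and ULK1 (5.41%), beside 6% of all genes and 6.45% of those with peaks. Regions of both directions stood at 4 genes, DDIT4, PDPK1, RPTOR and PRR5, beside 5.99% and 7.96%. The other 6 genes, SESN2, PIK3CA, TFEB, RHEB, TSC1 and AKT1, had no region, beside 46.3% and 30.2%. The pathway genes are longer than most (median span 52246 bp, beside 24170.5 bp over all genes), and a longer span has more room for a region. The part of span in these shares was not tested.

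The split toward OTX2high is that of the authors' normalized reads, and the median log2 ratio over all 10726 genes with a region was itself 0.53. That median covers called regions only, and what lies behind it was not tested. Recentred on that median, 11 of the 37 genes had all regions above it, 15 all below it and 5 on both sides. Without recentring, 25 were higher in OTX2high, 2 higher in OTX2low and 4 mixed. A gene takes the value of its most-read region, and the median over the 31 pathway genes with a region was 0.49, which is 0.04 below the median of all genes. Of the 31 genes, 21 (67.7%) lay within 0.15 log2 units of that median, beside 53.5% of all genes with a region. Farther than 0.5 from it lay 7 of 31 (22.6%), beside 26.4%: IRS1, RICTOR, RRAGD, RRAGB, ULK1, RPTOR and INSR. At least 1 log2 unit higher in OTX2high were 4 of 31, IRS1, RICTOR, RRAGD and RRAGB, beside 13.3%. Each of these shares is read against its background, and those for the genes far from the median are at or below it.

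**Figure D2:**
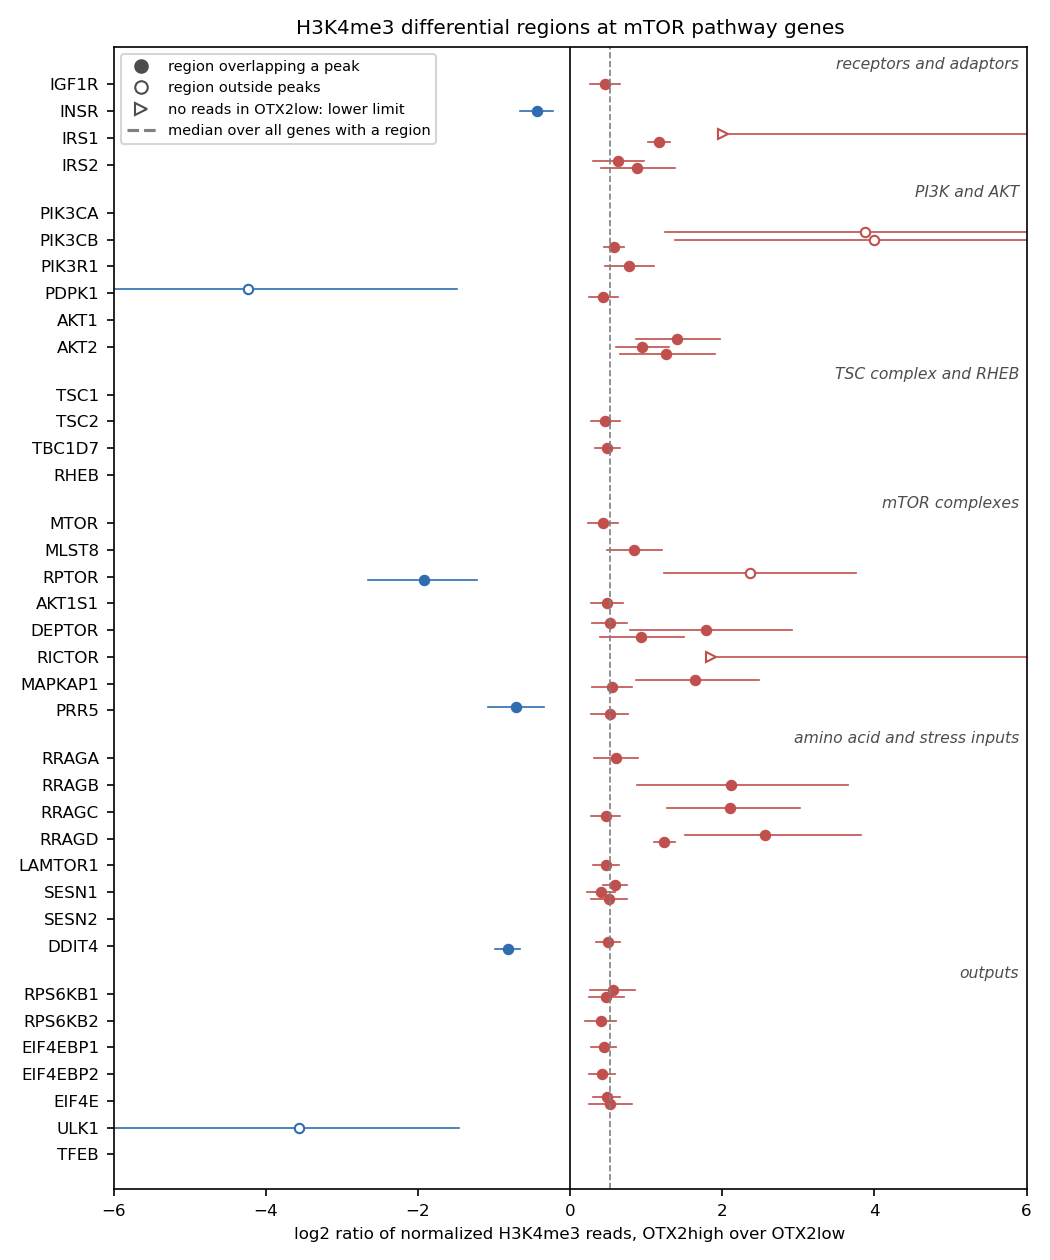
Log2 ratio of normalized H3K4me3 reads, OTX2high over OTX2low (x axis), for each of the 50 differential regions at the pathway genes (y axis, by role), with 95% counting intervals that are clipped at the plot's edges. Filled points overlap a peak, open points do not, and the dashed line is the median of 0.53 over all genes with a region. Triangles are lower limits against the floor of 3 counts where OTX2low had 0 reads. Their bars start at that limit instead of at the lower end of the counting interval. Most filled points stand at the dashed line, and 6 regions lie left of 0.

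The regions were also set beside the peak lists, as a description only, since the size of a ratio helps decide whether a peak is called in 1 list or both. Of the 44 regions higher in OTX2high, 33 (75%) overlapped peaks of both lists, 6 (13.6%) a peak of the OTX2high list only and 5 no peak, with median log2 ratios of 0.52, 1.94 and 3.99. Over the whole table the shares were 60.2%, 13.7% and 26.1%. Of the 6 regions higher in OTX2low, 3 overlapped peaks of both lists (DDIT4, INSR and PRR5), 1 a peak of the OTX2low list only (RPTOR) and 2 no peak (ULK1 and PDPK1). The 7 regions outside peaks held between 13.6 and 45.5 normalized reads in their higher library in the authors' deposited table, and their ratios rest on few reads.

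**Figure D3:**
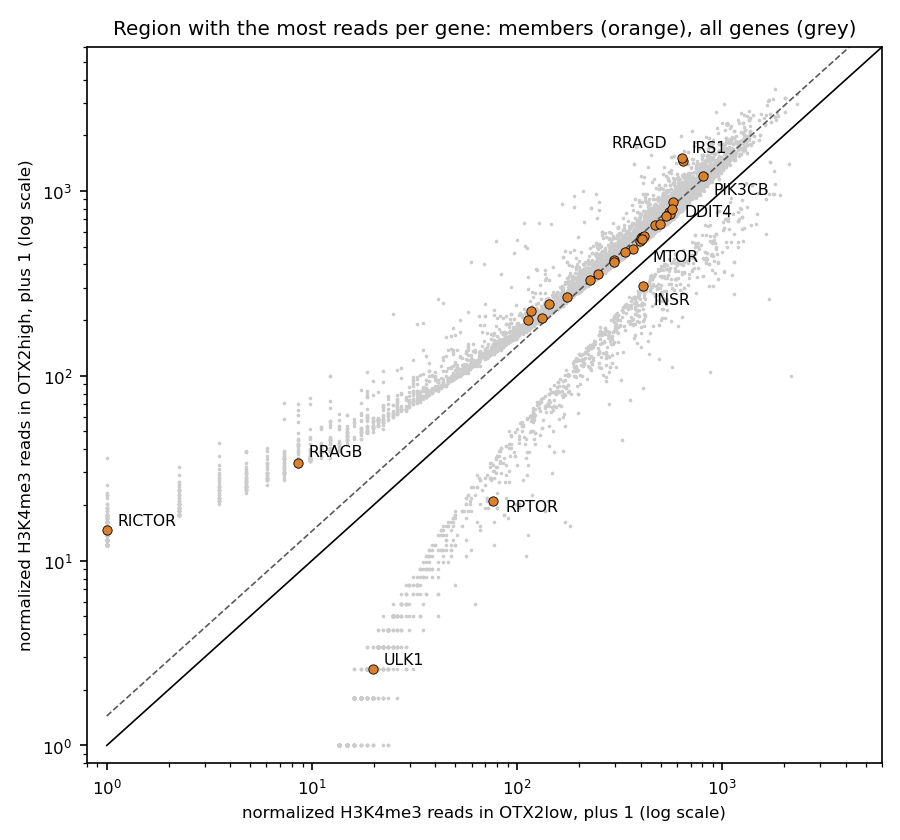
Normalized H3K4me3 reads plus 1 in OTX2low (x axis, log scale) against OTX2high (y axis, log scale) in the region with the most reads of each gene with a region, for all genes (grey) and the pathway genes (orange), with equality (solid) and the median log2 ratio of 0.53 (dashed). The empty band along the solid line arises because the table holds only called regions; INSR, RPTOR and ULK1 lie below equality, and IRS1 and RRAGD above the dashed line.

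Of the 4 receptors and adaptors, 3 were higher in OTX2high, with IRS1 the farthest, while INSR was higher in OTX2low. IRS1, the adaptor that couples insulin and IGF receptors to PI3K, held 1448 normalized reads in OTX2high against 644 in OTX2low by the authors' deposited table, a log2 ratio of 1.17 (1.03 to 1.31). This region of 7600 bp, on chromosome 2 from 226791501 to 226799100, runs from 720 to 8319 bp downstream of the start, so it lies inside the gene and beyond the promoter printed above. The OTX2high peak of 9977 bp covers it without a break, while the OTX2low list, from a library of lower depth, holds separate shorter peaks across the same stretch. A second IRS1 region, outside any peak, had 15.2 reads in OTX2high against 0 in OTX2low by the authors' deposited table, at least 4.03-fold higher in OTX2high against a floor of 3 counts per library. The counting interval of that ratio is wider and starts at 1.57 log2 units, below this bound.

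INSR, the insulin receptor, went the other way. Its region on chromosome 19 from 7293601 to 7294600, which spans the start (186 bp before to 813 bp after), had 304 normalized reads in OTX2high against 411 in OTX2low by the authors' deposited table, a log2 ratio of -0.44 (-0.65 to -0.22). The ratio of ChIP to IgG reads in that table ran opposite to this, at 247 in OTX2high and 174 in OTX2low, so the direction depends on which of these 2 measures is read. Fold enrichment at its start peak, which serves only within a list, was 34.3 in OTX2high, beside a median of 45.8 over all genes. In OTX2low it was 37.1, beside 35.8. INSR also had an internal H3K4me3 peak with its summit 95973 bp downstream of the start in OTX2high and 95884 bp in OTX2low, where no own start is listed.

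IGF1R, the IGF-1 receptor, had no differential region at its start peak. Its region lay inside the gene, 203 kb downstream of the start, with 552 normalized reads in OTX2high against 401 in OTX2low by the authors' deposited table and a log2 ratio of 0.46 (0.27 to 0.66), close to the median of all genes. This spot overlaps the uncharacterized locus LOC124903561 and carried the strongest IGF1R peak of both lists, with fold enrichments of 45.2 and 33.3. IRS2, the second adaptor, had 203 and 132 reads in one region and 116 and 62.7 in another in the authors' deposited table, with log2 ratios of 0.63 and 0.88. The first lies inside the gene and was not called by the G-test on the recovered reads (p = 0.0001145, beside the cutoff of 0.0001), and the second lies upstream.

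Of the 6 PI3K and AKT genes, 3 were higher in OTX2high, 1 was mixed and 2 had no region. AKT2, the AKT isoform best known for insulin-driven glucose uptake, was flanked by differences on both sides of its start. Its 3 regions held 119, 223 and 87.0 normalized reads in OTX2high, against 45.1, 115 and 36.4 in OTX2low, by the authors' deposited table, with log2 ratios of 1.40 (0.86 to 1.96), 0.95 (0.60 to 1.30) and 1.26 (0.66 to 1.90). They lay from 3145 to 5244 bp and from 1245 to 2744 bp downstream and from 1655 to 256 bp upstream of the start, so the start itself was in no called region. The AKT2 peaks covered 5692 bp in OTX2high and 2606 bp in OTX2low, from libraries of unlike depth. AKT1 had no region and a single start peak of 2288 bp in OTX2high and 2197 bp in OTX2low.

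PIK3CB, a catalytic PI3K subunit, had 1196 reads in OTX2high and 802 in OTX2low across its start in the authors' deposited table, a log2 ratio of 0.58 (0.44 to 0.71). It had 2 further regions outside peaks, of 18.4 against 1.25 and 19.9 against 1.25 normalized reads in the authors' deposited table, where OTX2low had 1 read and the counting intervals ran from 1.25 to 9.24 and from 1.38 to 9.35 log2 units. PIK3R1, the regulatory subunit, differed at its second listed start rather than its first, with 243 and 142 reads in the authors' deposited table and a log2 ratio of 0.78 (0.46 to 1.1). PIK3CA, the other catalytic subunit among the members, had start peaks in both conditions and no region.

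PDPK1, the kinase that activates AKT, was mixed. Its region with the most reads, 65.8 kb downstream of the start, lies past the far end of the gene within the 2000 bp extension, where it overlaps LOC652276. It had 546 reads in OTX2high against 404 in OTX2low by the authors' deposited table, a log2 ratio of 0.43 (0.24 to 0.63). The opposite call, outside any peak, rested on 0.8 normalized reads in OTX2high (1 read) and 15.0 in OTX2low (12 reads) in the authors' deposited table, with an interval from -9.65 to -1.48. A near-identical pseudogene of PDPK1 lies on the same chromosome, and how the authors treated reads with several matches is not given in the sources used here, so PDPK1 values are uncertain.

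Within the TSC complex and RHEB, the brake on mTORC1 and its direct activator, 2 of 4 genes were higher in OTX2high and 0 the other way. TSC2 had 570 reads in OTX2high against 414 in OTX2low by the authors' deposited table, at a log2 ratio of 0.46 (0.27 to 0.66). That region runs from 1984 bp upstream to 15 bp downstream of the TSC2 start and takes in the start of the divergent gene NTHL1, so its reads cannot be given to either. TBC1D7, the third subunit, had 769.8 and 547 reads in the authors' deposited table and a log2 ratio of 0.49 (0.33 to 0.66). The TBC1D7 region also takes in the listed starts of LOC124901261 and TBC1D7-LOC100130357. TSC1 and RHEB had start peaks in both conditions and no called region, which is no measurement of equality.

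All 8 genes of the mTOR complexes had a region, 6 higher in OTX2high and 2 mixed, and the ratio at MTOR itself lay near the median of all genes. MTOR, the kinase shared by both complexes, had 531 normalized reads in OTX2high against 395 in OTX2low by the authors' deposited table, a log2 ratio of 0.43 (0.23 to 0.63), or 0.10 below the median of all genes. Its region, chromosome 1 from 11260801 to 11262400, starts 151 bp downstream of the start. MLST8, the second subunit of both complexes, had 199 and 112 reads in the authors' deposited table (log2 ratio 0.84, 0.48 to 1.2). Of the subunits and inhibitors, AKT1S1 (467 and 335 reads, 0.48), DEPTOR (423 and 296, 0.52) and MAPKAP1 (330 and 226, 0.55) lay close to the median of all genes in their regions with the most reads in the authors' deposited table. The AKT1S1 region also overlaps the neighbouring gene TBC1D17. Weaker regions of DEPTOR held 43.1 and 12.5 reads (1.78, 0.79 to 2.92) and 93.3 and 48.9 (0.93, 0.40 to 1.49) in the authors' deposited table. A weaker region of MAPKAP1 held 66.2 and 21.3 (1.64, 0.87 to 2.48). These weaker regions overlapped peaks of the OTX2high list only, from libraries of unlike depth.

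RPTOR, the defining subunit of mTORC1, was mixed in regions far from its start, while its start peak was in no called region. On chromosome 17 from 80914301 to 80916300, 369 kb into the gene, it had 19.9 normalized reads in OTX2high against 75.2 in OTX2low by the authors' deposited table, a log2 ratio of -1.92 (-2.65 to -1.22). A peak stood there in the OTX2low list only, with a fold enrichment of 6.55. The opposite region, 24963 bp into the gene and outside any peak, had 45.5 reads in OTX2high against 8.77 in OTX2low by the authors' deposited table (2.37, 1.24 to 3.75).

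Of the mTORC2 members, RICTOR and PRR5 differed in unlike ways. RICTOR, the scaffold of mTORC2, had a single region, outside any peak and 50.4 kb into the gene, with 13.6 normalized reads in OTX2high against 0 in OTX2low by the authors' deposited table, at least 3.61-fold higher in OTX2high against the same floor. Its counting interval starts at 1.39 log2 units, again below the bound. Its start peak, of 4194 bp in OTX2high and 3946 bp in OTX2low, was in no called region. PRR5, an mTORC2 subunit also called Protor-1, differed in opposite directions at 2 of its 3 listed starts. At the upstream start (850 bp before to 149 bp after) it had 98.1 reads in OTX2high against 160.5 in OTX2low by the authors' deposited table, a log2 ratio of -0.71 (-1.08 to -0.34).

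Just past the downstream start of PRR5, 33.5 kb away, the numbers were 353 in OTX2high against 247 in OTX2low by the authors' deposited table, a log2 ratio of 0.52 (0.27 to 0.77). The downstream start also serves the read-through gene PRR5-ARHGAP8, and the upstream region takes in the start of the uncharacterized locus LOC124905132. The ratio to IgG ran opposite to the reads at both starts of PRR5, at 63.8 (OTX2high) and 48.4 (OTX2low) upstream and 37.1 and 47.4 downstream in the authors' deposited table. A G-test on the recovered reads put the upstream region just past the authors' cutoff of 0.0001, at p = 0.0001035, beside 9.79e-05 in the authors' deposited table.

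**Figure D4:**
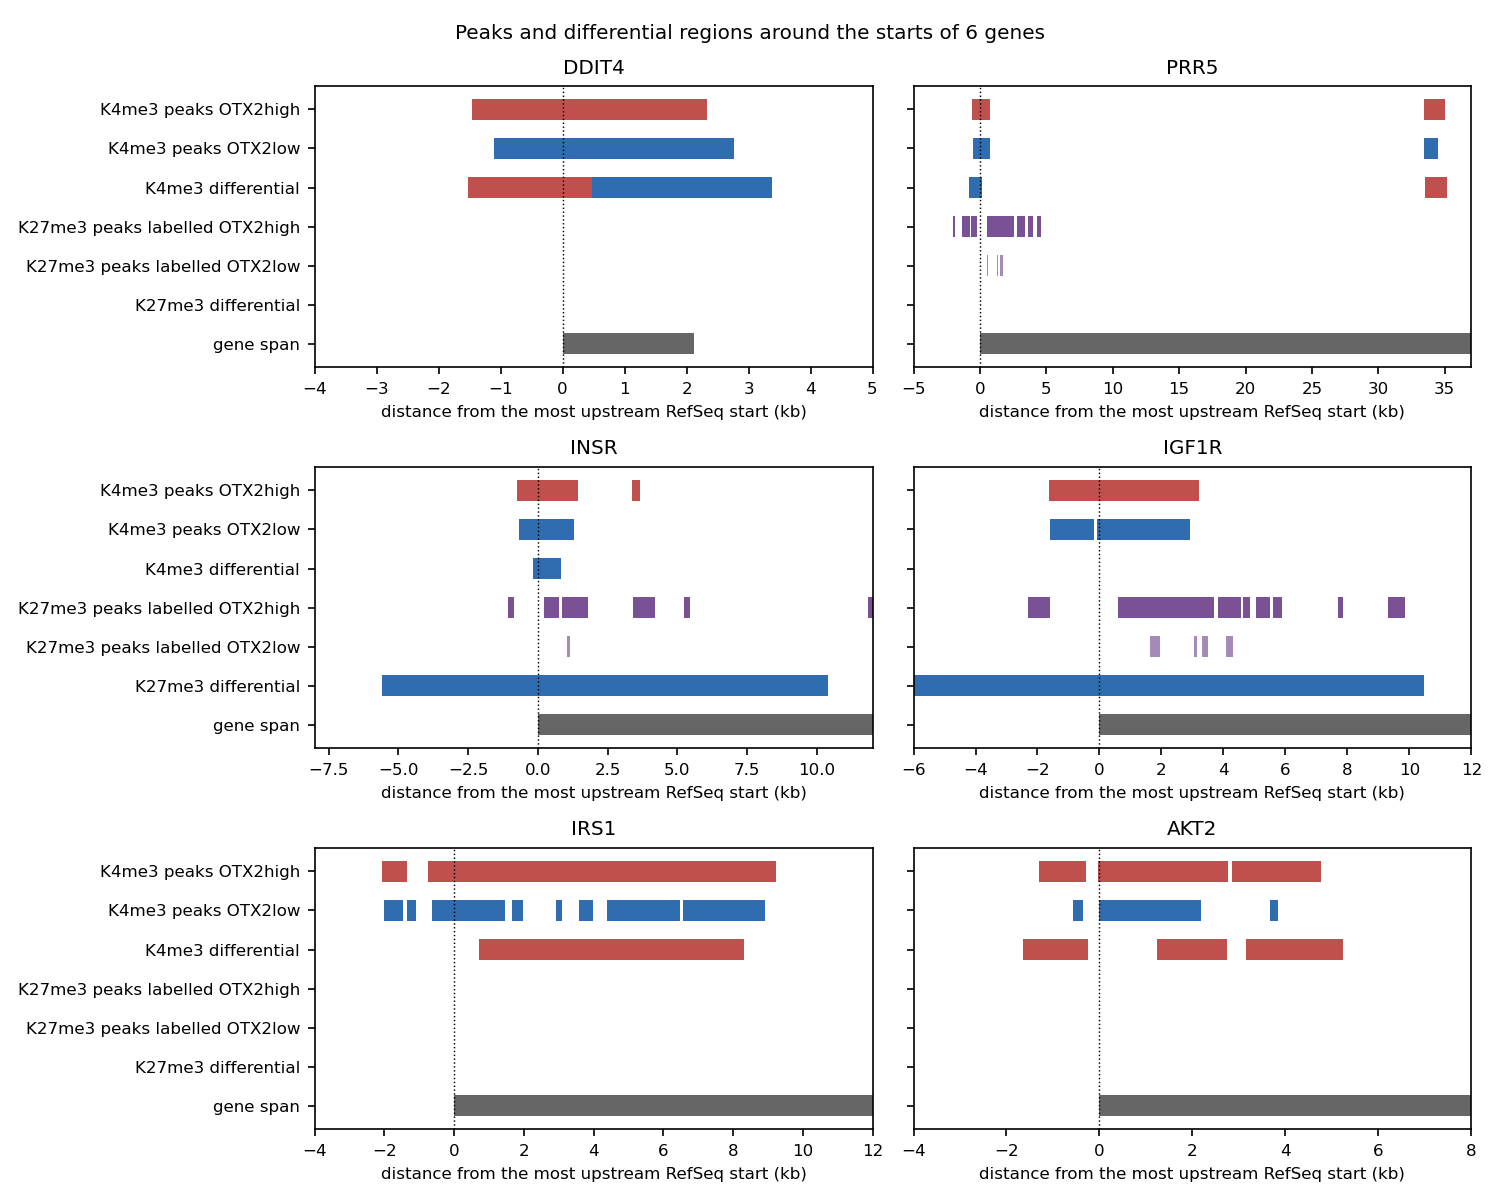
Peaks and differential regions around the most upstream RefSeq start of DDIT4, PRR5, INSR, IGF1R, IRS1 and AKT2 (x axis, kb from the start in the direction of the gene), with 1 row per peak list or table, red for OTX2high and blue for OTX2low in the H3K4me3 rows and in the differential rows, and purple for the H3K27me3 peak lists by sample label. DDIT4 changes from red to blue across its start region, PRR5 has blue at its first start and red near 33.5 kb, and the IRS1 peak is unbroken in OTX2high and split in OTX2low.

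Of the 8 amino acid and stress inputs, 6 were higher in OTX2high, 1 was mixed and 1 had no region. The RAG GTPases, which recruit mTORC1 to the lysosome, held the largest called ratios of this group. RRAGD had 1499.7 normalized reads in OTX2high against 636 in OTX2low over 8600 bp in the authors' deposited table, a log2 ratio of 1.24 (1.1 to 1.38), and a weaker region of 59.0 and 10.0 reads (2.56, 1.504 to 3.82). Its main peak measured 5150 bp in OTX2high and 2719 bp in OTX2low, from libraries of unlike depth. RRAGB, on chromosome X, had 32.7 and 7.52 reads just upstream of its start in the authors' deposited table (2.12, 0.88 to 3.65).

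RRAGC showed the same arrangement as AKT2, with a larger ratio beside the start peak than within it. From 2972 to 4971 bp downstream of the start it had 74.99 reads in OTX2high against 17.6 in OTX2low by the authors' deposited table (2.1, 1.28 to 3.02). From 472 to 2371 bp downstream it had 561 and 406 in the authors' deposited table (0.47, 0.27 to 0.66). RRAGA, in a region upstream of the gene that overlaps SAXO1, with 264 and 174 reads in the authors' deposited table and a log2 ratio of 0.60, and LAMTOR1, the Ragulator subunit that anchors the RAGs, with 732 and 528 and a ratio of 0.47, lay near the median of all genes. The promoters of RRAGB, RRAGC and LAMTOR1 each hold the E-box shown above, and their ratios near the start ran from 0.47 to 2.12.

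The sestrins are leucine and stress sensors that restrain mTORC1. SESN1 had 3 regions higher in OTX2high, with log2 ratios from 0.41 to 0.59 in the authors' deposited table. Its downstream start had the most, with 865 and 574 reads in the authors' deposited table. SESN2 had a start peak of 4859 bp in OTX2high and 4431 bp in OTX2low and no called region, so no ratio can be set beside those of SESN1.

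DDIT4, also called REDD1, a stress-induced inhibitor of mTORC1 that acts through the TSC complex, changed direction within 1 peak. Around its start, chromosome 10 from 72272401 to 72274500, it had 800.1 normalized reads in OTX2high against 567 in OTX2low by the authors' deposited table, a log2 ratio of 0.50 (0.34 to 0.66). Over the rest of the gene and past its end, from 72274401 to 72277300, it had 487 and 861 in the authors' deposited table, a log2 ratio of -0.82 (-0.98 to -0.66). The part around the start also takes in the start of DDIT4-AS1, so its reads cannot be given to either gene. That part matched the median of all genes, while the gene body of DDIT4 was higher in OTX2low. Its peak was of nearly equal length in both conditions, 3795 bp in OTX2high and 3884 bp in OTX2low, and ended farther downstream in OTX2low.

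Peak-borne regions of both directions were found at 2 of 37 genes, DDIT4 and PRR5 (5.41%), beside 3.49% of genes with an H3K4me3 peak in both lists. At least 1 region higher in OTX2low stood at 6 of 37 genes (16.2%), beside 14.4%, and at 4 of 37 (10.8%) with regions outside peaks left out, beside 8.18%. At this size of set these shares are near their background.

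Of the 7 outputs, 5 were higher in OTX2high, ULK1 was higher in OTX2low and TFEB had no region, and the median log2 ratio over the 6 with a region was 0.43. The S6 kinases RPS6KB1 (409 and 295 reads, 0.47) and RPS6KB2 (482 and 366, 0.40) and the translation repressors EIF4EBP1 (748 and 553, 0.44) and EIF4EBP2 (659.7 and 494, 0.42) all lay within 0.15 of the median of all genes in the authors' deposited table. EIF4E, the cap-binding protein that the 4E-BPs hold, had 654 and 469 reads in the authors' deposited table and a log2 ratio of 0.48 (0.30 to 0.66). A start of the neighbouring gene TUBD1 lies in the RPS6KB1 start peak of both conditions or within 500 bp of its edges.

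ULK1, the kinase that starts autophagy, had no called region at its start peak. It had a fold enrichment there of 29.5 in OTX2high, beside a median of 45.8 over all genes in that list. In the OTX2low list it had 29.6, beside 35.8, and the 2 lists are not compared by this measure. Its single region, 5.18 kb downstream of the start and outside any peak, rested on 1.6 normalized reads in OTX2high (2 reads) and 18.8 in OTX2low (15 reads) in the authors' deposited table, with a log2 ratio of -3.56 (-6.73 to -1.45). TFEB, the lysosomal transcription factor that mTORC1 holds in the cytoplasm, had a start peak of 2341 bp in OTX2high and 2499 bp in OTX2low.

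H3K27me3 peaks stood at a minority of these genes, at shares near those of other genes with H3K4me3. By the list labelled OTX2high, a peak overlapped 7 of 37 genes (18.9%), beside 25.8% of all genes. By the one labelled OTX2low it was 5 of 37 (13.5%), beside 17.7%. Both lists held one at 4 genes, IGF1R, PDPK1, INSR and PRR5 (10.8%), beside 16.8%. Against the genes with H3K4me3 peaks in both lists, 8 of 37 had a peak in either list (21.6%), beside 22.3%, and the separate backgrounds were 21.3% and 14.1%. The pathway genes are longer than most, with a median span of 52246 bp beside 24170.5 bp over all genes, and a longer span has more room for a peak. Over a start, TFEB alone among the 31 genes with a listed start carried H3K27me3, in the list labelled OTX2high, beside 8.11% of all genes in that list and 2.42% in the other.

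The receptors carried most of it. INSR had 24 H3K27me3 peaks over 8231 bp by the list labelled OTX2high and 1 of 110 bp by the list labelled OTX2low. In the same order, IGF1R had 8 over 6190 bp and 4 over 825 bp, PRR5 7 over 4544 bp and 3 over 376 bp, and PDPK1 2 over 996 bp and 2 over 165 bp. At IGF1R the broadest, of 3095 bp, had a fold enrichment of 9.09 and a summit 1612 bp downstream of the start. It overlapped the H3K4me3 start peak of both conditions, and its summit lay inside both. TFEB had 7 peaks over 2099 bp, AKT2 1 of 491 bp and PIK3R1 1 of 169 bp in the list labelled OTX2high only. RPS6KB1 had 1 of 78 bp in the list labelled OTX2low only. The AKT2 peak lies past the far end of the gene and mostly outside the 2000 bp extension. Without the extension, the list labelled OTX2high had a peak at 6 genes. The covered lengths differ between lists that also differ in depth and in the fragment length MACS estimated, 169 and 78 bp, and the part of either was not tested.

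**Figure D5:**
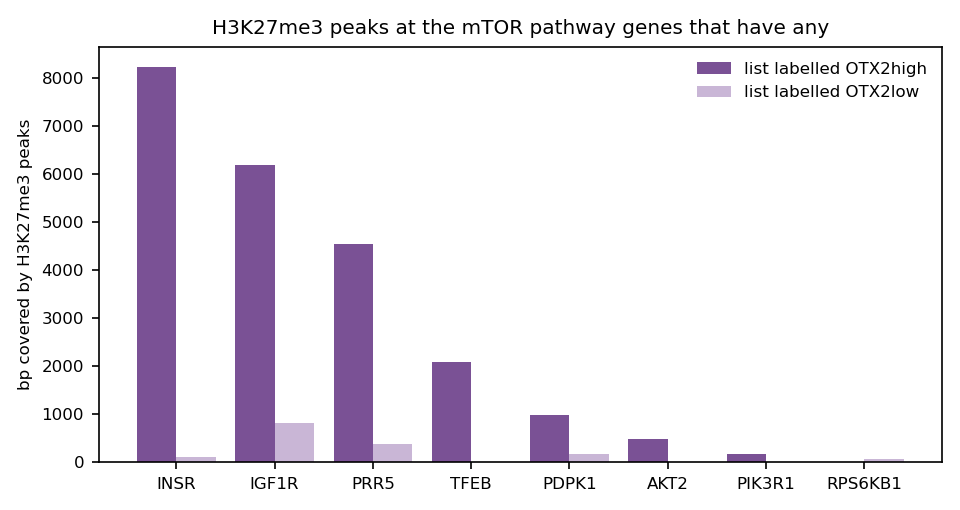
Base pairs covered by H3K27me3 peaks (y axis, from 0) at each of the 8 pathway genes with any (x axis), dark for the list labelled OTX2high, light for the one labelled OTX2low. INSR (8231 and 110 bp), IGF1R (6190 and 825 bp) and PRR5 (4544 and 376 bp) hold most of the cover, and RPS6KB1 alone has more in the list labelled OTX2low. The AKT2 bar is a peak past the far end of the gene.

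Differential H3K27me3 regions stood at 4 of the 37 genes. By the condition names of the authors' deposited table, 2 genes were higher in OTX2low, IGF1R and INSR (5.41%), beside 7.1% of all genes, and 2 higher in OTX2high, RPTOR and DEPTOR (5.41%), beside 3.35%. Among genes with H3K4me3 peaks in both lists these backgrounds were 6.38% and 3.46%. No gene had both directions, beside 0.255% of all genes and 0.336% of those with H3K4me3 peaks, and 33 had no region, beside 89.3% and 89.8%. The IGF1R region, chromosome 15 from 98630001 to 98659000, takes in the start and had 1361 normalized reads in OTX2high against 1748 in OTX2low by the authors' deposited table, a log2 ratio of -0.36 (-0.47 to -0.26). That is 0.03 from the median of -0.33 over all genes with a region.

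INSR had an H3K27me3 region over its start and another in the gene. Over the start, from 5586 bp upstream to 10413 bp downstream, it held 338 and 486 normalized reads in the authors' deposited table, a log2 ratio of -0.52 (-0.73 to -0.32). The second, 87.4 to 97.4 kb downstream, held 171.5 and 257 in the authors' deposited table, a log2 ratio of -0.58 (-0.88 to -0.30), and takes in the internal H3K4me3 peak. At the INSR start both marks were thus listed with more reads under the name OTX2low, for H3K27me3 where the authors' deposited table gives ChIP to IgG ratios of 2.08 (OTX2high) and 3.09 (OTX2low). The headers of the peak lists give the same order as that table for INSR and IGF1R, since the list with the larger cover is the one headed OTX2low. That list was the larger as a whole, with 158878 peaks against 102810 and 40271458 tags against 33885628. The order at these genes therefore cannot decide which names are right.

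The regions at RPTOR and DEPTOR lay outside any H3K27me3 peak, with ChIP to IgG ratios of at most 1.3 in the authors' deposited table. RPTOR had 320.1 and 189.8 normalized reads in one and 199 and 119 in the other in the authors' deposited table, with log2 ratios of 0.75 (0.49 to 1.02) and 0.74 (0.41 to 1.08). Their ChIP to IgG ratios were 1 and 0.65 in the first and 1.3 and 0.74 in the second in the authors' deposited table. The second RPTOR region spans the place where H3K4me3 was higher in OTX2low. DEPTOR had 3 such regions with log2 ratios from 0.59 to 0.69 and ChIP to IgG ratios from 0.53 to 0.86 in the authors' deposited table.

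A further 57 genes of the pathway were counted in the same way. H3K4me3 peaks stood at 57 of 57 in both conditions, beside 73% of all genes. Of the 57, 36 (63.2%) were higher in OTX2high, beside 41.7% of all genes and 55.4% of those with H3K4me3 peaks in both lists. Higher in OTX2low were 4 (7.02%), beside 6% and 6.45%, and mixed were 6 (10.5%), beside 5.99% and 7.96%. No region stood at 11 (19.3%), beside 46.3% and 30.2%. These 57 genes had a median span of 42261 bp, beside 24170.5 bp over all genes, and its part in these shares was not tested. The median log2 ratio over the 46 with a region was 0.585, beside 0.53 over all genes and 0.49 over the 31 above. Of the 46, 22 (47.8%) lay within 0.15 of the median of all genes, beside 53.5% of all genes with a region. The genes higher in OTX2low were NPRL2 of the GATOR1 complex (11.2 and 37.6 normalized reads, -1.75), the folliculin partner FNIP2 (0.8 and 17.6, -4.46), the arginine sensor gene family member CASTOR2 (23.9 and 58.9, -1.30) and the TFEB relative TFE3 (19.2 and 57.7, -1.59) in the authors' deposited table. All 4 rested on fewer than 60 reads in either library.

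Higher in OTX2high and far from the median of all genes in their most-read regions were ULK2 (38.3 and 5.01 reads, 2.93), LPIN1 (50.3 and 17.6, 1.52), PRKCA (47.9 and 17.6, 1.45) and FNIP1 (12.8 and 0) in the authors' deposited table, again on few reads. LPIN1 and PRKCA had regions of both directions and are counted as mixed. H3K27me3 peaks stood at 8 of the 57 (14.0%) by the list labelled OTX2high, beside 25.8% of all genes. By the other list they stood at 4 (7.02%), beside 17.7%. PIK3CD, a PI3K subunit best known from white blood cells, held 21 and 6 of these peaks.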

How the data were processed

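H3K4me3 and H3K27me3 ChIP-seq of D283 tumorspheres (1 library per mark and condition) and 2 IgG libraries were deposited, 6 samples in all. Per the submitters' processing notes, alignment to GRCh38 used Bowtie2 2.3.3.1 and peak calling MACS2 2.1.1.20160309. Per the file headers, each list sets a single library against a single IgG control at a q-value of 0.05. The deposited peak columns are a pileup signal, -log10 p and -log10 q values and a fold enrichment (a ratio). Per the file headers, diffReps 1.55.6 compared 1 library with 1 by a G-test at a p-value cutoff of 0.0001, in windows of 1000 bp every 100 bp (H3K4me3) or 10000 bp every 1000 bp (H3K27me3). The authors' deposited tables give normalized read signal, ChIP to IgG ratios, log2 ratios (above 0 is higher in OTX2high) and p-values with Benjamini-Hochberg adjustment, and their hotspot tables counts of regions per cluster. Such p-values compare 2 libraries, not the conditions.

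For H3K4me3, 1 read was worth 0.7977 (OTX2high) and 1.2536 (OTX2low), and 100% of values came out whole within 0.05. The G-test on these reads called 18380 of 21714 regions at the authors' cutoff, and 45 of the 50 at the pathway genes. For H3K27me3 the steps were 1.1434 and 0.8746; that table holds no low values, so these reads are used only for intervals. Intervals are exact conditional (Clopper-Pearson) at 95%, from counting error only, and the floor is 3 counts per library. The G-test and intervals were tested on simulated data. Overlaps needed 1 bp with the gene span extended by 2000 bp, computed with Python 3.11.15, pandas 2.3.3, numpy 2.4.6 and scipy 1.17.1. Gene spans and promoters are those of RefSeq (GRCh38.p14).

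A gene was higher in a condition when all its regions were, and mixed otherwise. Named in full were MTOR, genes at least 0.5 log2 units from the median of all genes, genes with a region higher in OTX2low, genes without an H3K4me3 peak, genes with H3K27me3, and the 3 highest and 3 lowest fold enrichments; of the other 57 genes, those higher in OTX2low or at least 0.8 from the median, of which 1 is not reported here. The members and lists were chosen with earlier results of these data known. Alternatives were other overlaps, windows at gene ends or starts, stricter thresholds, recentring and exchanged H3K27me3 names. The IgG libraries were not analysed here as groups.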

Additional observations from a re-analysis of the deposited data

How the results depend on the processing

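Of 60 alternative values for 12 counts and medians, 42 stayed within 1.5 times or within the counting spread and 18 moved. H3K27me3 peak counts moved from 7 genes to 1 (list labelled OTX2high) and from 5 to 0 (labelled OTX2low) when a peak had to cover a start; from 5 to 3 at -log10 q of at least 5 and to 3 at gene ends. Genes with H3K4me3 regions higher in OTX2high went from 25 to 11 on recentring. Those higher in OTX2low, 2, became 15 on recentring, 0 at an adjusted p of at most 0.001, 1 with at least 20 reads and 1 around starts. Mixed genes, 4, became 1 at gene ends, 2 at that adjusted p, 2 with regions in peaks, 2 around starts and 0 by the region with the most reads. Genes with H3K27me3 higher in OTX2high, 2, became 0 at gene ends, 0 around starts and 0 at 4-fold over IgG, where those higher in OTX2low went from 2 to 1. By construction these settings keep fewer peaks or regions, except recentring, which moves the line between directions by 0.53. The G-test on recovered reads called 45 of 50 regions, not 1 each at IRS2, RPS6KB1, PRR5, EIF4E and DEPTOR. The median log2 ratio stayed between 0.48 and 0.50. Exchanging the H3K27me3 condition names swaps 2 genes against 2. Its counts are thus the same by construction and enter the 42, although each gene changes direction. The count of 0 genes with H3K27me3 regions of both directions could also not move where a setting only removes regions. Windows around starts, peaks over starts and the G-test on recovered reads were chosen after seeing the data. No paired analysis was possible because each group has 1 library, and for the same reason no library could be left out. Regions the G-test did not call are not listed, so a gene without one cannot be bounded.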

Other observations

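The authors' hotspot table groups neighbouring differential regions into clusters. H3K4me3 clusters overlapped 6 of the 37 pathway genes (16.2%), beside 12.2% of all genes: RRAGC, EIF4E, SESN1, DDIT4, LAMTOR1 and AKT2. Those at RRAGC, EIF4E and SESN1 joined 2 regions each, all higher in OTX2high, and the one at AKT2 joined 3, in the authors' deposited table. The DDIT4 cluster held 1 region of each direction in the authors' deposited table. The cluster at LAMTOR1 joined 4 regions higher in OTX2high, on chromosome 11 from 72078701 to 72113900, which reaches well beyond the gene. No H3K27me3 cluster overlapped a pathway gene, beside 0.536% of all genes.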
